A study of Mus musculus with 32 samples.

Results

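The early B-cell factor genes examined here were *Ebf1*, *Ebf2* and *Ebf3*, chosen by gene symbol, and they were 3 of the 31053 genes in the deposited tables. Their levels were read in the BMSC-OBs of Diversity Outbred (DO) mice, which are outbred animals descended from several inbred strains. BMSC-OBs are bone marrow-derived stromal cells grown under osteogenic conditions until the cultures mineralize, so the data describe cultured marrow cells and not intact marrow. Cells of 4 or 5 mice were pooled, which gave 16 pools from 77 listed mice, and each pool was sequenced in 2 runs on a droplet platform that tags each captured 3′ transcript end with a unique molecular identifier (UMI). All pools had the same culture and no treatment contrast, and cells were not assigned to individual mice, so the pool was the replicate and the comparisons run between cell classes within pools.

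EBF proteins are transcription factors with a zinc-containing DNA-binding domain and a helix-loop-helix domain through which they dimerize. EBF1 is best known for committing lymphoid progenitors to the B-cell lineage, together with the *Tcf3* product E2A and upstream of PAX5. In marrow stroma, EBF1 and EBF3 are known from the CXCL12-abundant reticular (CAR) cells that support blood stem cells and B-cell precursors, and EBF2 is known from brown and beige adipocytes and from immature osteoblast-lineage cells. Antibody-secreting cells are the last stage of the B lineage, in which much of the earlier B-cell program is known to be shut down.

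In GRCm38 coordinates, *Ebf1* lies at chr11:44617317-45008091 on the plus strand, *Ebf2* at chr14:67233292-67430918 on the plus strand and *Ebf3* at chr7:137193673-137314445 on the minus strand. Because the members moved together across the mesenchymal classes described below, the sequence just upstream of start sites that RefSeq gives for them was searched for the EBF site itself. RefSeq promoter entries matched 2 of the 3 members, *Ebf1* and *Ebf3*; *Ebf2* had no entry. The 250 bases before the start of *Ebf3* are chr7:137314446-137314695, minus strand, and those before a start of *Ebf1* are chr11:44619978-44620227, plus strand, both from RefSeq GRCm38.p6. This *Ebf1* start is internal, so its window lies within the gene coordinates given above and outside its annotated exons. A further *Ebf1* window, chr11:44617850-44618099, lies in an annotated exon of the gene and is not shown. In the sequences, written 5′ to 3′, capitals mark an EBF core (CCCNNGGG) or a CArG box, the binding sequence of serum response factor.
Ebf3: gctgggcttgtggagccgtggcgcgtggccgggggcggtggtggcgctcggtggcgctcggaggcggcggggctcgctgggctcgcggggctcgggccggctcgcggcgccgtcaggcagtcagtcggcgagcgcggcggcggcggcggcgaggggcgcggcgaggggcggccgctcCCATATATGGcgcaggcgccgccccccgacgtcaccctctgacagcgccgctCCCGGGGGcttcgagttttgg
Ebf1: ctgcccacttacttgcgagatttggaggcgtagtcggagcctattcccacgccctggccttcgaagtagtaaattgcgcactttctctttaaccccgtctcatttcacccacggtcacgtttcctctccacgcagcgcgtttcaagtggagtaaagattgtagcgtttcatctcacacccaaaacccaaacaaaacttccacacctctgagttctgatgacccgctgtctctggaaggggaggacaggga
The *Ebf3* window held 1 EBF core, beginning 21 bases before the start, and 1 CArG box, beginning 73 bases before it, and 80.0% of its bases were G or C. In the *Ebf1* window, of which 52.0% was G or C, neither motif was found and 1 E-box (CANNTG) was present. Both strands were searched. Among 32851 RefSeq windows of the same length, 11.8% held the EBF core, 0.779% the longer palindrome with T before and A after that core, 1.47% a CArG box and 66.2% an E-box. These windows were not matched for G and C content. The fixed letters of the core are all G or C, so 11.8% is not the share for windows as rich in them as that of *Ebf3*. The longer palindrome contains the core and was in neither window shown. These matches describe the letters in each window and say nothing of binding.

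Total counts in the run used, HGYVNCCX2, were between 53990642 and 100777353 UMIs per pool, and 88909 of 107853 barcodes passed the cell filters. The other run held 84.5% to 99.8% of the same barcodes per pool, so it was treated as a second reading of the same droplets and not as a replicate. Any pair of pools shared between 3 and 28 barcodes. After removal of 5003 called doublets (5.63%), 83906 cells were placed in gates by marker genes, none of which was an *Ebf* gene. The gates held 63219 mesenchymal cells, 11148 macrophage-like, 1541 granulocyte-like, 436 T-cell-like, 248 endothelial-like, 238 B-lineage and 123 glial-like cells, and 6894 cells were in no gate. At least 2 UMIs of *Xist* and 2 of Y-linked genes, as cells of mice of different sex can give, were found in 695 droplets. Of these, 47.8% had been called doublets. Doublets may therefore remain among the others, and the part of free RNA in them was not tested.

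Mesenchymal cells with at least 2000 UMIs were divided by 4 marker scores into marrow adipogenic lineage progenitor-like (MALP-like, 8009 cells), late mesenchymal progenitor-like (LMP-like, 11972), osteoblast-like (13531) and osteocyte-like (9128) cells. The classes are ranges of a score and not discrete types: of 51520 scored cells, 17.2% fell between classes and 12.2% lay within 0.1 of the required lead. The median MALP-like score was 2.09 in MALP-like cells, -0.26 in LMP-like cells and -0.60 in osteoblast-like cells. Blood and endothelial genes were found in few MALP-like cells, with *Ptprc* (a pan-leukocyte gene) in 2.38%, *Cdh5* (endothelial) in 0.0874% and *Cd79a* (B-lineage) in 0.499%. *Tyrobp*, a myeloid adaptor gene, was found in 12.0% of them. Genes of other mesenchymal classes were common, with the bone matrix gene *Ibsp* in 99.5% and the LMP marker *Acta2* in 55.1%.

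*Ebf1* gave the most UMIs of the members in every mesenchymal class, as 3′ UMI counts that are not scaled by length, and its level was highest in MALP-like cells. There, the level in UMIs per 10000 UMIs of the class was 4.00 in the lowest pool, 6.54 at the median and 8.16 in the highest (6.49 ± 1.14, SD, n = 16 pools). LMP-like cells had 1.20, 1.60 and 2.17 UMIs per 10000 at the lowest, median and highest pool (1.64 ± 0.28, n = 16). Osteoblast-like cells had 0.338, 0.525 and 0.824 (0.543 ± 0.136, n = 16). No MALP-like pool overlapped any LMP-like pool, and no LMP-like pool overlapped any osteoblast-like pool. Such separation of ranges, here and below, was read for the members only, and its share among all genes was not determined. Osteocyte-like cells, with 0.343, 0.463 and 1.32 (0.570 ± 0.270, n = 16), overlapped the osteoblast-like range, and pool 1 was the highest of them. In the plot of levels by gate each of the 3 genes falls from MALP-like over LMP-like to osteoblast-like cells.

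**Figure D1:**
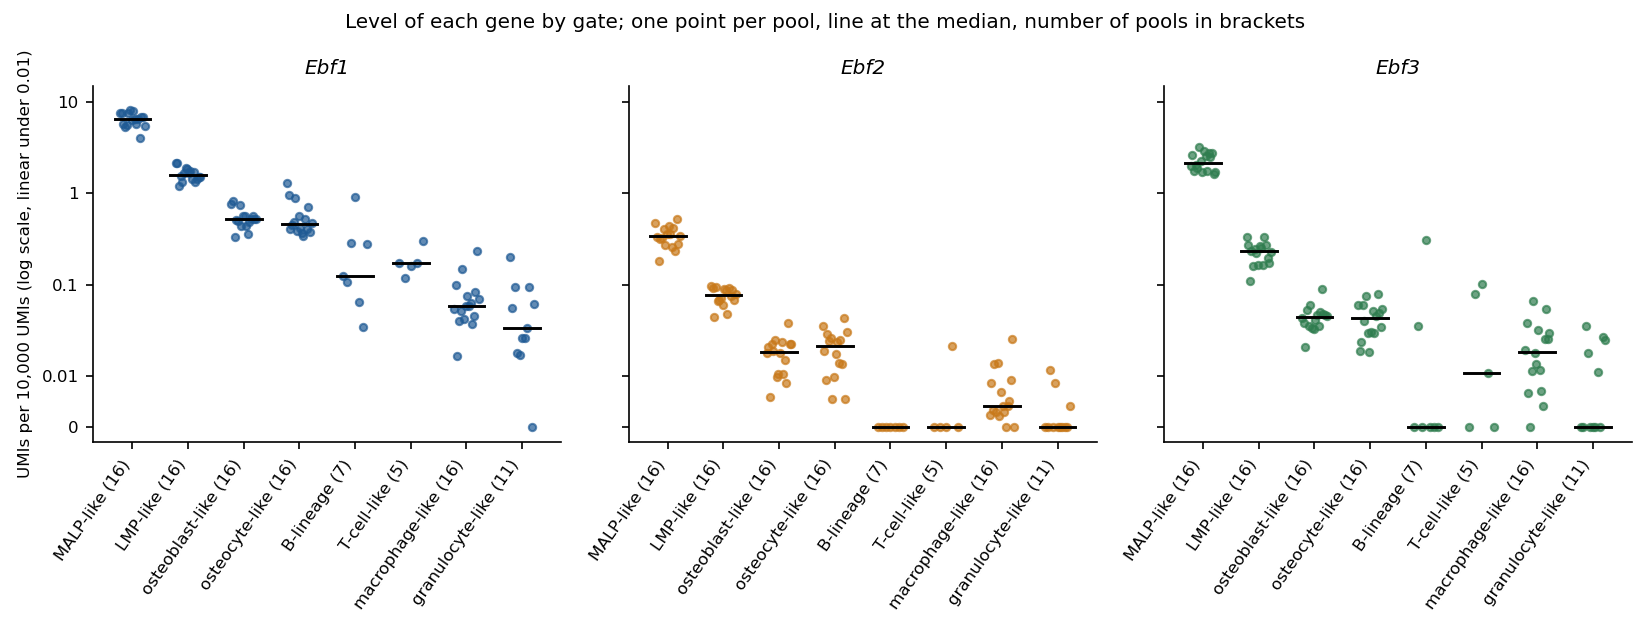
Level of *Ebf1*, *Ebf2* and *Ebf3* in each gate, with 1 point per pool (pools per gate in brackets on the x axis) and a line at the median; the y axis is UMIs per 10000 UMIs on a log scale that is linear under 0.01. For each gene all 16 MALP-like points lie above all LMP-like points, and B-lineage cells had no *Ebf2* UMI in any of 7 pools. How many other genes separate in this way was not determined.

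*Ebf2* gave the fewest UMIs of the members. In MALP-like cells the lowest pool had 0.184, the median pool 0.340 and the highest 0.529 UMIs per 10000 (0.347 ± 0.0914, n = 16). In LMP-like cells the corresponding values were 0.0447, 0.0777 and 0.0964 (0.0767 ± 0.0163), and in osteoblast-like cells 0.00585, 0.0184 and 0.0386 (0.0182 ± 0.00817). The ranges of these 3 classes did not overlap. Osteocyte-like cells had 0.0207 ± 0.0110, from 0.00553 to 0.0439, which spanned the osteoblast-like range.

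*Ebf3* lay between the other members in UMIs. MALP-like cells had 1.62 UMIs per 10000 in the lowest pool, 2.16 at the median and 3.22 in the highest (2.27 ± 0.514, n = 16). LMP-like cells had 0.109, 0.234 and 0.331 (0.227 ± 0.0622), and osteoblast-like cells had 0.0210, 0.0447 and 0.0911 (0.0452 ± 0.0154), with no overlap between the 3 classes. Osteocyte-like cells had 0.0438 ± 0.0188 and overlapped osteoblast-like cells. In LMP-like and in osteoblast-like cells, pool 3 was the lowest of the 16 pools for *Ebf1*, *Ebf2* and *Ebf3* alike, and in MALP-like cells it was the lowest for *Ebf2*.

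To ask whether the members differ between classes beyond the spread of the pools, the UMIs of each class in a pool were added up and modelled over all genes in edgeR (quasi-likelihood F test) with a term for pool, and p-values were adjusted over all genes tested by the Benjamini-Hochberg (BH) method. Against LMP-like cells, *Ebf1* was 3.43-fold higher in MALP-like cells (log2 fold change 1.78 ± 0.05, SE, edgeR adjusted p = 7.41e-18). *Ebf2* was 3.91-fold higher (1.97 ± 0.07, edgeR adjusted p = 2.23e-16). *Ebf3* was 8.74-fold higher (3.13 ± 0.08, edgeR adjusted p = 1.67e-18). Each was higher in 16 of 16 pools. In this comparison 38.3% of the 11985 genes tested were called higher, with a median log2 fold change of 0.03 over all genes, so 3 of 3 members called higher stands beside a background in which such calls are common.

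The members also differed between osteoblast-like and LMP-like cells, in the other direction. *Ebf1* was 2.32-fold lower in osteoblast-like cells (log2 -1.22 ± 0.06, edgeR adjusted p = 1.50e-13), *Ebf2* 3.20-fold lower (-1.68 ± 0.12, edgeR adjusted p = 4.77e-11) and *Ebf3* 3.82-fold lower (-1.93 ± 0.08, edgeR adjusted p = 6.56e-15). Of the 12462 genes tested, 39.9% were called lower. Set directly against osteoblast-like cells, the MALP-like level was 7.74-fold higher for *Ebf1*, 12.3-fold for *Ebf2* and 32.5-fold for *Ebf3* (log2 5.02 ± 0.10, edgeR adjusted p = 1.90e-19), where 39.6% of genes were called higher. These comparisons share libraries and are not independent of each other.

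Between osteocyte-like and osteoblast-like cells no member passed the test. The log2 fold changes were -0.01 ± 0.07 for *Ebf1*, 0.16 ± 0.15 for *Ebf2* and -0.07 ± 0.09 for *Ebf3* (SE, n = 16 pools), with edgeR adjusted p of 0.918, 0.346 and 0.537. Without pool 17, *Ebf2* was at 0.29 ± 0.11 and passed (edgeR adjusted p = 0.0284). In the same fit 62.7% of 11829 genes were called in either direction.

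Osteoblast-like cells were further read by a score of hypoxia-response genes, such as *Slc2a1* and *Bnip3*. *Ebf1* was lower in the cells with a high score, at 0.353 ± 0.0677 UMIs per 10000 (0.202 to 0.424, n = 14 pools), than in those with a low score, at 0.652 ± 0.137 (0.435 to 0.893, n = 16 pools). The ranges did not overlap. The fit over the 14 pools with enough cells of both kinds gave a 1.57-fold lower level (log2 -0.65 ± 0.08, edgeR adjusted p = 1.05e-06), lower in 14 of 14 pools. For *Ebf3* the log2 fold change was -0.40 ± 0.17 (edgeR adjusted p = 0.0458), lower in 10 of 14 pools, and this call was lost in 9 of the 14 fits that leave out 1 pool and in 5 other alternatives. *Ebf2* did not pass the count filter. In this comparison 32% of 10794 genes were called lower.

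The share of cells with a UMI followed the same order of classes. As found, pooled over pools, *Ebf1* was detected in 89.6% of MALP-like, 78.7% of LMP-like and 53.5% of osteoblast-like cells. *Ebf3* was detected in 69.5%, 24.5% and 7.92%, and *Ebf2* in 25%, 11.5% and 3.35% of the same classes. In macrophage-like cells, with a median of 4881 UMIs, the shares were 3.09%, 1.27% and 0.287% for *Ebf1*, *Ebf3* and *Ebf2*. MALP-like cells were the shallowest of these classes, with a median of 8853 UMIs per cell against 17690 in LMP-like and 19256 in osteoblast-like cells, so each cell was also thinned to 2000 UMIs. At that depth *Ebf1* was expected in 65.9% ± 10.3 of MALP-like, 27.3% ± 3.83 of LMP-like and 10.8% ± 2.37 of osteoblast-like cells (SD, n = 16 pools). *Ebf3* was expected in 33.5% ± 6.95, 4.98% ± 1.21 and 1.15%, and *Ebf2* in 6.80% ± 2.00, 1.72% ± 0.425 and 0.408%. Macrophage-like cells at that depth had 1.16% for *Ebf1*, 0.392% for *Ebf3* and 0.0882% for *Ebf2*, and the difference of the thinned shares from this background was not tested. This background leaves out 1444 of the 11148 macrophage-like cells, which had fewer than 2000 UMIs. Pool 13 stood apart in MALP-like cells. It had an *Ebf1* UMI in 48.5% of 666 cells as found, where the mean over pools was 91.1% ± 12.6, and it was also the pool with the lowest *Ebf1* level. Among MALP-like cells with at least 4000 UMIs, thinned to that depth, the lowest of the 16 pools had 78.4% (mean 86.6% ± 3.92). This left out 1364 of the 8009 cells.

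MALP-like cells were a minor class that held a large part of each gene's UMIs. They made up 12.7% of mesenchymal cells and 9.29% of mesenchymal UMIs, pooled over pools, but held 41.8% of *Ebf1*, 47.0% of *Ebf2* and 65.4% of *Ebf3* UMIs. By pool, their part of *Ebf3* was 50.4% in the lowest, 60.1% at the median and 83.1% in the highest (62.2% ± 9.82, n = 16). Osteoblast-like cells, 21.4% of mesenchymal cells, held 11.0%, 7.81% and 3.97% of *Ebf1*, *Ebf2* and *Ebf3* UMIs.

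**Figure D2:**
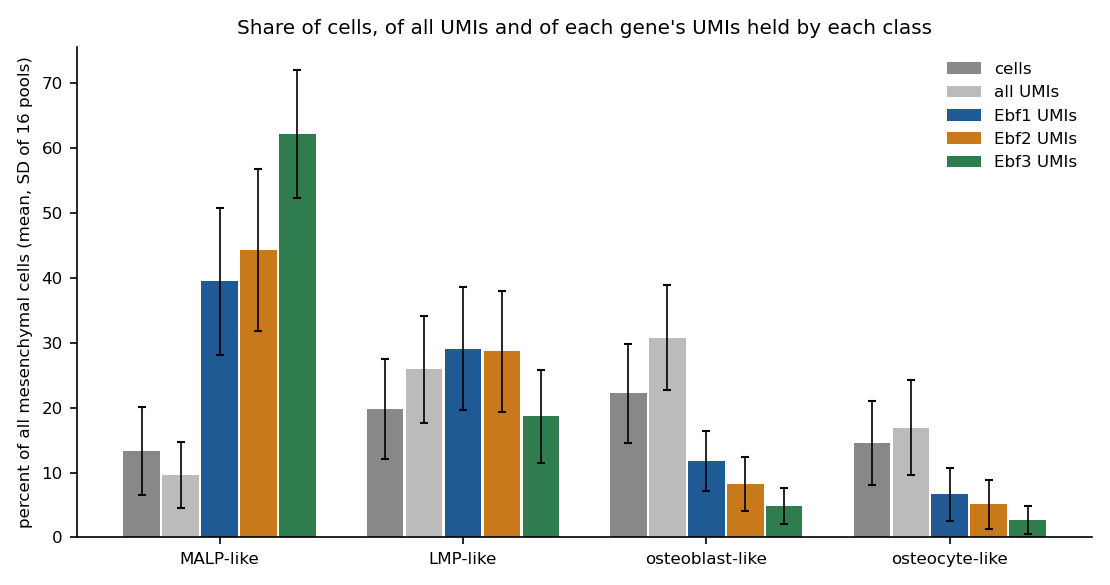
Percent of all mesenchymal cells, of all their UMIs and of each gene's UMIs held by each class (bars, mean of 16 pools; error bars, SD). The MALP-like bars rise from 13.3% of cells and 9.64% of UMIs to 39.5%, 44.3% and 62.2% of *Ebf1*, *Ebf2* and *Ebf3* UMIs.

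Summed over all mesenchymal cells, the level of each member spanned a wider fold between pools than it did within MALP-like cells. The highest pool was 3.63 times the lowest for *Ebf1*, 6.26 times for *Ebf2* and 6.01 times for *Ebf3*. Within MALP-like cells the corresponding ratios were 2.04, 2.88 and 1.98, and within LMP-like cells 1.80, 2.16 and 3.03. They were 2.44, 6.59 and 4.34 in osteoblast-like and 3.85, 7.94 and 4.31 in osteocyte-like cells, so in these classes *Ebf2* spanned more than in the sum, as did *Ebf1* in osteocyte-like cells. The share of mesenchymal cells that were MALP-like ran from 5.38% to 30.7% between pools, and its part in the differences of the summed level was not tested.

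The composition of the family's counts also differed between classes. Because each gene's UMIs are counted at the 3′ end and were not scaled by length, the ratios below compare UMI counts of 2 genes and are read between classes only. For every *Ebf1* UMI there were 0.0856 ± 0.0294 *Ebf3* UMIs in osteoblast-like, 0.139 ± 0.0315 in LMP-like and 0.357 ± 0.0928 in MALP-like cells (SD, n = 16 pools). The ratio was higher in MALP-like than in LMP-like cells in 16 of 16 pools, by 1.36 on the log2 scale (SD 0.252). An exact two-sided sign-flip permutation test over pools gave p = 3.05e-05, the smallest it can give (BH-adjusted p = 6.1e-05 over 6 ratio tests). LMP-like cells were above osteoblast-like cells by 0.72 (SD 0.368), also in 16 of 16 pools and with the same p. Pool 13 had the highest ratio in each mesenchymal class, at 0.627 in MALP-like, 0.2047 in LMP-like, 0.1725 in osteoblast-like and 0.191 in osteocyte-like cells.

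The ratio of *Ebf2* to *Ebf1* moved less. It was 0.0337 ± 0.0141 in osteoblast-like, 0.0471 ± 0.00907 in LMP-like and 0.0539 ± 0.0120 in MALP-like cells. MALP-like cells were above LMP-like cells by 0.18 on the log2 scale in 12 of 16 pools (exact permutation test, BH-adjusted p = 0.0149), and this difference did not pass in the other run, where it was 0.16. Both classes were above osteoblast-like cells in 14 of 16 pools, by 0.73 for MALP-like and 0.55 for LMP-like cells (BH-adjusted p = 0.000183 and 0.000403, exact permutation test).

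**Figure D3:**
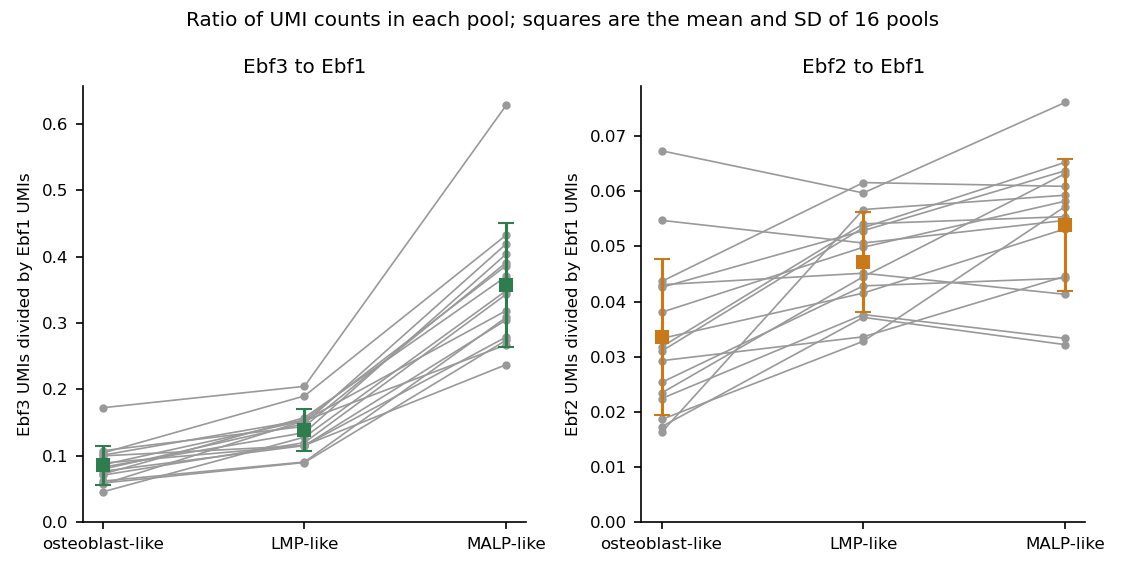
UMIs of *Ebf3* (left) and *Ebf2* (right) divided by UMIs of *Ebf1* (y axis) in osteoblast-like, LMP-like and MALP-like cells (x axis); grey lines join the classes of a pool and squares with bars are the mean and SD of 16 pools. The *Ebf3* ratio climbs in each pool from LMP-like to MALP-like cells, with means of 0.139 and 0.357.

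The members were also followed over the MALP-like score itself, in 7 ranges that cut across the classes. *Ebf1* went from 0.577 UMIs per 10000 in the lowest range, under -0.5, through 2.26 between 0 and 0.5 to 5.13 between 1 and 2, 7.28 between 2 and 3 and 9.35 at 3 and above. *Ebf3* went from 0.0420 through 0.355 and 2.02 to 2.59 and was 1.94 in the top range. *Ebf2* went from 0.0209 through 0.120 and 0.309 to 0.388 and was 0.319 in the top range. Each of the first 5 steps was upward for every member in at least 15 of 16 pools.

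At the last step the members parted. Over the 14 pools with at least 20 cells in the top range, which held 582 cells in all, *Ebf1* rose by a further 0.34 on the log2 scale (SD 0.177), in 13 of 14 pools (BH-adjusted p = 0.000275, exact sign-flip permutation test, 18 steps tested). *Ebf3* fell by 0.40 (SD 0.349) and was higher in the top range in 2 of 14 pools (BH-adjusted p = 0.00142, exact permutation test). For *Ebf2* the step was -0.37 (SD 0.612), with 4 of 14 pools higher (BH-adjusted p = 0.0382, exact permutation test), and it did not pass with called doublets kept or with a stricter mesenchymal gate. When *Adipoq*, the adiponectin gene, was taken out of the score, only 4 pools had enough cells in the top range, and the steps were 0.49, -1.08 and -0.61 for *Ebf1*, *Ebf2* and *Ebf3*, a number of pools with which the test cannot reach the threshold.

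**Figure D4:**
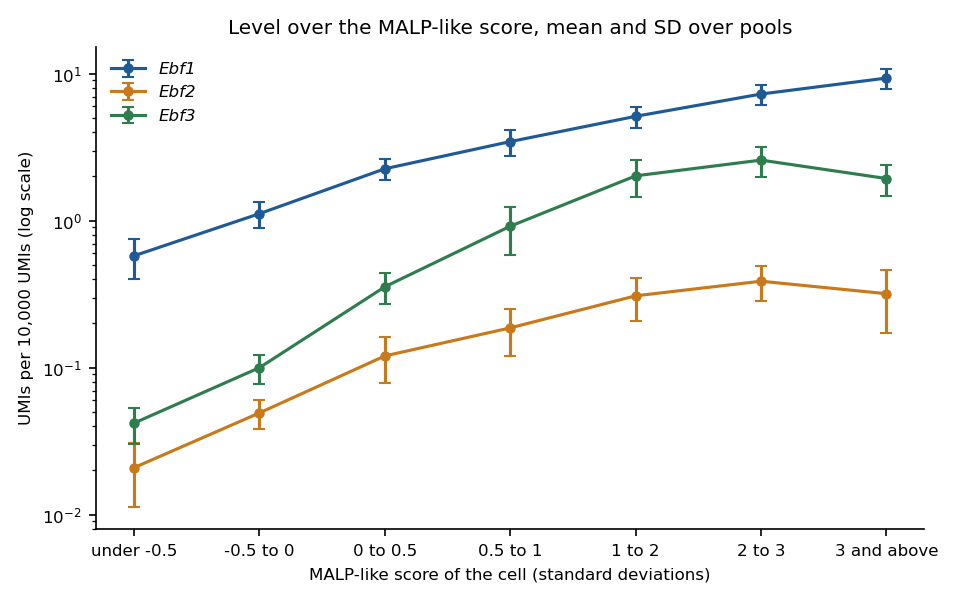
Level of *Ebf1*, *Ebf2* and *Ebf3* (y axis, UMIs per 10000 UMIs, log scale) over 7 ranges of the MALP-like score of the cell (x axis), as the mean and SD over 16 pools, or 14 in the top range. *Ebf1* is highest in the top range at 9.35, while *Ebf3* peaks at 2.59 and *Ebf2* at 0.388 in the range before it.

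Among cells with at least 5000 UMIs, the combinations of members differed by class. In MALP-like cells (6198 cells), 53.1% had UMIs of *Ebf1* and *Ebf3* without *Ebf2*, 25% had all 3, 15.4% had *Ebf1* alone and 0.839% had none. LMP-like cells (10545 cells) most often had *Ebf1* alone, in 52.9%, followed by *Ebf1* and *Ebf3* in 20.1%, none in 12.4% and all 3 in 4.84%. In osteoblast-like cells (11996 cells), 50.0% had *Ebf1* alone, 38.4% had none and 0.367% had all 3. As a share of all cells, a UMI of *Ebf2* or *Ebf3* without *Ebf1* was uncommon: *Ebf3* alone was found in 0.984% of MALP-like, 1.73% of LMP-like and 2.67% of osteoblast-like cells. *Ebf3* was itself seldom found in osteoblast-like cells, where 320 had *Ebf3* alone and 624 (5.2%) had *Ebf1* and *Ebf3* without *Ebf2*. Detection here depends on depth and a missing UMI is not an absent transcript.

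Whether members occur in the same cells more often than their separate shares give was asked in cells thinned to 5000 UMIs, by pool. In LMP-like cells *Ebf2* and *Ebf3* were found together in 0.929% of cells, where the product of both shares was 0.501% (mean log2 ratio 0.87, SD 0.361, above 0 in 16 of 16 pools). *Ebf1* and *Ebf3* were found together in 7.60% against 5.70% (0.44, SD 0.119), and *Ebf1* and *Ebf2* in 2.82% against 2.24% (0.35, SD 0.103), each above 0 in 16 of 16 pools. Each of these 3 pairs had a BH-adjusted p of 0.000128 over 84 tests (exact sign-flip permutation test). In MALP-like cells, where *Ebf1* was found in most cells, the mean log2 ratios were 0.03 for *Ebf1* and *Ebf2*, 0.02 for *Ebf1* and *Ebf3*, and 0.18 for *Ebf2* and *Ebf3* (10.8% against 9.48%). All 3 passed the test, and the pair of *Ebf2* and *Ebf3* did so with 16 of 16 pools above 0. With a class lead of 0.75, *Ebf1* and *Ebf2* no longer passed (unadjusted exact permutation p = 0.202, above 0 in 10 of 16 pools).

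Genes used by nearly every cell served as the background of this measure. With *Tbp*, *Gusb*, *Hprt*, *Polr2a* and *Sdha*, the mean log2 ratios of the members lay between -0.14 and 0.15 in LMP-like and between -0.22 and 0.06 in MALP-like cells, and some of these passed the test too. The member pairs in LMP-like cells lay above that range, and in MALP-like cells the pair of *Ebf2* and *Ebf3* did so. With *Adipoq*, a marker of the MALP-like score, the ratios in LMP-like cells were 0.38, 1.03 and 1.09 for *Ebf1*, *Ebf2* and *Ebf3*. The latter 2 were above every member pair. The part of cell makeup within a class in all these ratios was not tested. *Ebf3* in LMP-like cells also went with *Lepr*, the leptin receptor of CAR cells (1.09, SD 0.32), and with *Cebpa*, an adipogenic transcription factor (0.98, SD 0.195), both above 0 in 16 of 16 pools with a BH-adjusted p of 0.000128 (exact permutation test). For *Ebf1* and *Lepr* the mean log2 ratio there was 0.16 (SD 0.158), above 0 in 12 of 16 pools, which also passed (BH-adjusted p = 0.0025, exact permutation test). With *Runx2*, the master regulator of osteoblasts, the ratios in MALP-like cells were 0.23 for *Ebf2* and 0.13 for *Ebf3*, both of which passed (BH-adjusted p = 0.000265 and 0.000128, exact permutation test), and the ratio for *Ebf1* did not pass (adjusted p = 0.925, exact permutation test). In LMP-like cells every member passed with *Runx2*, at 0.06, 0.18 and 0.24 for *Ebf1*, *Ebf2* and *Ebf3* (BH-adjusted p = 0.000513, 0.0025 and 0.000128, exact permutation test). The value for *Ebf1* lay within the range of the reference genes there.

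**Figure D5:**
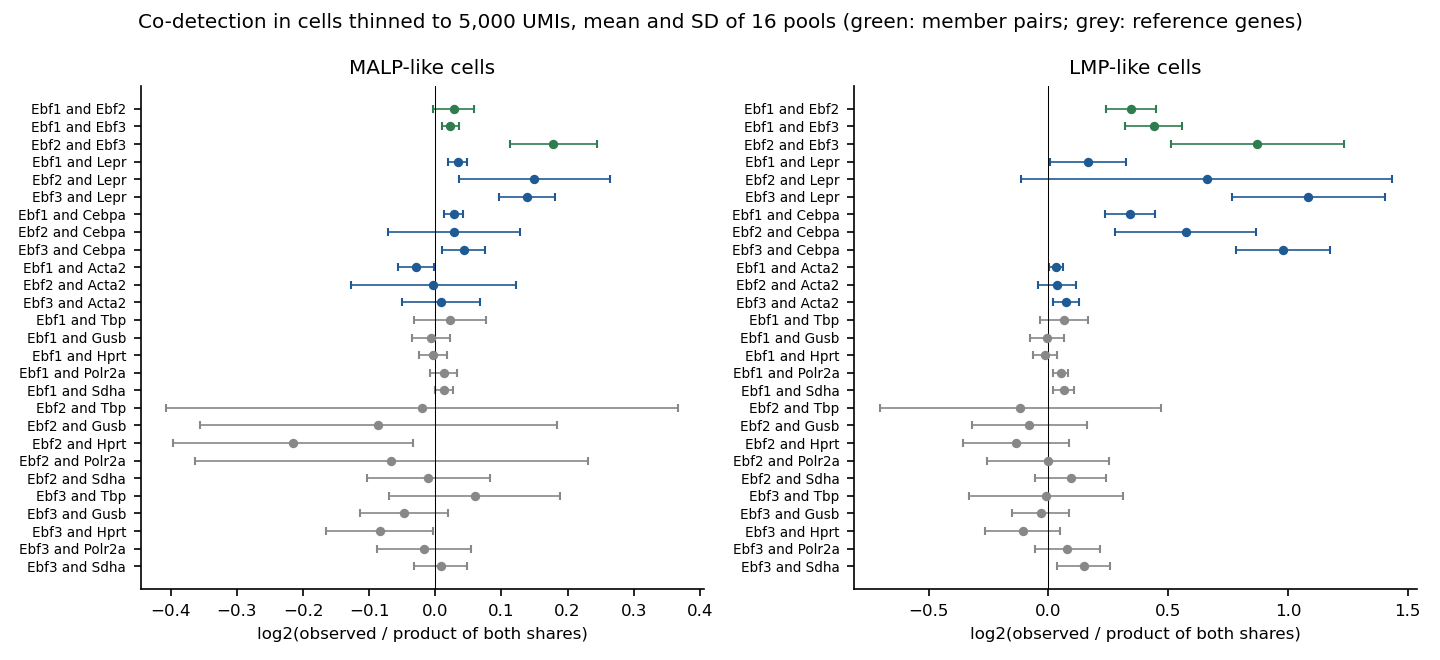
Co-detection of gene pairs in MALP-like (left) and LMP-like (right) cells thinned to 5000 UMIs; the x axis is the log2 ratio of the observed share of cells with both genes to the product of their shares, as the mean and SD of 16 pools (green, member pairs; blue, *Lepr*, *Cebpa* and the LMP marker *Acta2*; grey, reference genes). The axes differ in range. In LMP-like cells the member pairs lie at 0.35, 0.44 and 0.87, and the reference genes between -0.14 and 0.15.

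Between pools, the levels of the members varied together in LMP-like cells. *Ebf2* and *Ebf3* had a Pearson r of 0.854 over 16 pools (Spearman rho 0.850, permutation tests, BH-adjusted p = 0.00018 for r and 0.00042 for rho over 6 relations), and r was 0.755 without the 2 pools farthest from the median of *Ebf2*. For *Ebf1* and *Ebf3*, r was 0.640 (rho 0.588, adjusted permutation p = 0.0217 for r and 0.0499 for rho; r = 0.532 without the 2 farthest pools). For *Ebf1* and *Ebf2*, r was 0.559 (rho 0.565, adjusted permutation p = 0.0493 for r and 0.0499 for rho; r = 0.444 without the 2 farthest). In the other run r was 0.669, 0.595 and 0.352 for these 3 pairs, of which the first 2 passed (adjusted permutation p = 0.0277 and 0.0445), and no rho passed (adjusted permutation p = 0.086, 0.0994 and 0.365). In MALP-like cells r was 0.509 for *Ebf1* and *Ebf2*, 0.355 for *Ebf1* and *Ebf3* and 0.509 for *Ebf2* and *Ebf3*, none of which passed over all 16 pools (adjusted permutation p = 0.0531, 0.175 and 0.0531 for r, and 0.0689, 0.0601 and 0.0601 for rho). Without pool 13 the latter 2 were 0.610 and 0.600 and passed (adjusted permutation p = 0.0251 for each r, and 0.0328 and 0.0375 for rho). Each pool holds different mice, and the part of cell makeup within a class in these relations was not tested.

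Over the 64 sums of 16 pools and 4 mesenchymal classes, the genes whose levels were most like those of a member were ranked among 7854 genes with gate markers left out. This is a description of sums that share pools and classes. *Ebf1* was most like *Tgfbr3* (r = 0.985), the co-receptor betaglycan of TGF-beta ligands, then *Mrps6* (0.982), *S1pr1* (0.979), a sphingosine-1-phosphate receptor, *Mgst1* (0.979) and *Plpp3* (0.976), a lipid phosphatase. *Ebf3* was most like *Vegfc* (0.992), a growth factor of lymphatic vessels, *Mark1* (0.989), *Angpt1* (0.988), the TIE2 ligand made by CAR cells, *Fmo1* (0.986) and *Plpp3* (0.985). *Ebf2* was most like *Phactr2* (0.977) and then *Ebf3* (0.973), followed by *Man1a* (0.972), *Plagl1* (0.971) and *Shc1* (0.971).

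The setting of the members among related genes was taken from 5 lists, each read in MALP-like against LMP-like cells, where the median log2 fold change of all genes was 0.03 and 38.3% were called higher and 34% lower. Of 8 genes listed as EBF partners or family, 7 were tested, of which 6 were higher and 1 lower (median log2 fold change 1.32). *Foxc1*, a transcription factor of CAR cells, was 3.55-fold higher and *Zfp423*, a zinc finger protein that binds EBF proteins, 3.27-fold higher. Its relative *Zfp521* was 1.27-fold higher, and *Tcf3* was 1.19-fold lower (log2 -0.25 ± 0.04, edgeR adjusted p = 4.52e-05). The fourth family member, *Ebf4*, passed no count filter, with 19 UMIs in all MALP-like cells (0.00239 per 10000) and 160 in all LMP-like cells (0.00720 per 10000).

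Lists of adipogenic and niche genes moved in the same direction as the members. The adipogenic list holds transcription factors and also genes of lipid droplets and lipid handling. All 10 of its genes were higher in MALP-like cells (median log2 fold change 3.14). They ran from the transcription factors *Cebpb* at 1.37-fold and *Cebpd* at 1.90-fold to *Cidec* at 83.1-fold and *Plin1* at 137-fold, both lipid droplet proteins. All 10 CAR-cell niche genes were higher (median 2.39), from *Pdgfrb* at 1.13-fold and *Csf1* at 1.38-fold to *Il7*, the cytokine of B-cell precursors, at 15.4-fold and *Vcam1*, an adhesion molecule, at 16.9-fold. The classes were chosen by other genes of the adipogenic lineage, so these lists describe the class and are not independent of its choice.

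Osteoblast transcription factors were mixed in the same comparison, with 1 of 8 higher, 4 lower and 3 not called (median -0.14). *Mef2c* was 3.79-fold lower and *Dlx3* 2.69-fold lower, while *Dlx5* was 1.15-fold higher and *Zfp467* had a log2 fold change of 0.18 ± 0.08 (edgeR adjusted p = 0.0647). Of 12 genes of the B-cell program, 10, among them *Pax5*, *Rag1* and *Pou2af1*, did not pass the count filter. *Cd24a* was 1.34-fold lower in MALP-like cells and *Blnk*, a B-cell receptor adaptor, had a log2 fold change of 0.09 ± 0.21 (edgeR adjusted p = 0.706). In osteoblast-like against LMP-like cells, 9 of 10 niche genes were lower and 1 higher, and 6 of 8 osteoblast factors were higher. Of the 7 EBF partners tested there 3 were higher and 4 lower, and of 8 genes of the adipogenic list tested 2 were higher and 5 lower. Of 3 B-cell program genes tested 1 was higher. In that comparison 39.9% of all genes were called lower and 39.2% higher.

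Blood cells served as the background of the mesenchymal levels. Macrophage-like cells had 0.0736 ± 0.0517 *Ebf1* UMIs per 10000 (0.0168 to 0.232, n = 16 pools), 0.00657 ± 0.00661 of *Ebf2* and 0.0228 ± 0.0183 of *Ebf3*. In granulocyte-like cells *Ebf1* was at 0.0574 ± 0.0575 (n = 11 pools). *Ibsp* had a UMI in 97.1% of macrophage-like cells, at 10.65 UMIs per 10000 where osteoblast-like cells had 651.7. The source of these UMIs was not tested. With called doublets kept, macrophage-like cells had 0.254 *Ebf1* UMIs per 10000, and the parts of free RNA and of uncalled doublets in the background were not tested. Mesenchymal cells were 21.5-fold above macrophage-like cells for *Ebf1*, 13.2-fold for *Ebf2* and 14.1-fold for *Ebf3* (log2 4.43 ± 0.17, 3.72 ± 0.25 and 3.82 ± 0.16), with edgeR adjusted p of 1.70e-16, 5.77e-12 and 1.80e-15. There, 44.2% of 13219 genes were called higher. With called doublets kept, the log2 fold changes were 2.62, 2.09 and 1.94. These folds are for all mesenchymal cells together. In osteoblast-like cells, *Ebf2* (0.00585 to 0.0386) and *Ebf3* (0.0210 to 0.0911) overlapped the macrophage-like pools (0 to 0.0258 and 0 to 0.0660). Both genes overlapped them in osteocyte-like cells too, and no single class was tested against macrophage-like cells.

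B-lineage cells, in which *Ebf1* is a classical marker of the early stages, had little of it. At least 10 such cells were found in 7 pools. Pool 4 had 0.126 *Ebf1* UMIs per 10000, pool 6 0.108, pool 7 0.291, pool 9 0.921, pool 10 0.0658, pool 12 0.0345 and pool 14 0.278 (0.261 ± 0.308, SD). These values rest on 1 to 15 UMIs of *Ebf1* in 14 to 65 cells a pool, and pool 9 stood above the other pools with 15 UMIs in 17 cells. All B-lineage values were below the lowest MALP-like pool.

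The cells carried markers of antibody-secreting cells and, in part, of other B-lineage stages. *Jchain*, the joining chain of secreted antibodies, was found in 98.3%, and *Mzb1* and *Cd79a*, which belong to the gate's own marker list, in 99.6% and 92.0% of the 238 cells. *Pax5* was found in 1.26%, and *Vpreb1* and *Igll1*, the surrogate light chain genes of precursor B cells, in none of the 238, where a count of 0 allows up to 1.26% of cells with a UMI (3 counts) and does not show an absent transcript. Other markers were spread over the lineage, with *Cd24a* in 66.4%, *Ms4a1*, a gene of mature B cells, in 23.9%, *Vpreb3* in 16.8%, and *Tnfrsf17*, the plasma cell receptor BCMA, in 40.8%. By marker counts, 204 of the 238 cells were on the antibody-secreting side, with 0.135 *Ebf1* UMIs per 10000 pooled over pools (95% exact Poisson interval 0.0951 to 0.186). The other 34 cells had 0.552 (0.315 to 0.896). By pool the 2 sides could not be set apart: the antibody-secreting side ran from 0.0373 to 0.773 in 7 pools, and the 1 pool with at least 10 of the other cells, pool 6, had 0.239 in them. Intervals and floors here cover counting error only.

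*Ebf1* was 14.0-fold lower in B-lineage than in MALP-like cells of the same 7 pools (log2 -3.81 ± 0.26, edgeR adjusted p = 2.34e-16) and *Ebf3* 32.2-fold lower (-5.01 ± 0.37, edgeR adjusted p = 4.86e-15), where 33.8% of 9874 genes were called lower and the median over all genes was -0.32. Without pool 9 these were -4.20 and -6.27. With the stricter mesenchymal gate, which left 6 pools, *Ebf3* was at -7.56, and with called doublets kept it was at -4.04. *Ebf3* had 8 UMIs in B-lineage cells, in pools 6 and 9 only, at 0.0358 and 0.307 per 10000. *Ebf2* had no UMI in 206 B-lineage cells of the 7 pools with 2631562 UMIs. A floor of 3 counts over the group is 0.0114 per 10000. By plain UMIs per 10000, the pooled MALP-like level of 0.403 in the same pools put *Ebf2* at least 35.4-fold lower in B-lineage cells. This bound lacks the normalization of the edgeR folds and cannot be ranked against them. On its scale the pooled MALP-like level was 7.15 for *Ebf1* and 2.77 for *Ebf3*, against 47 and 8 B-lineage UMIs.

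Against the blood cell background, the *Ebf1* level of B-lineage cells was not settled. Over the same 7 pools B-lineage cells had 0.261 ± 0.308 and macrophage-like cells 0.0694 ± 0.0388 UMIs per 10000, and B-lineage cells were higher in 5 of 7 pools. The mean difference was 0.191 (SD 0.308), with p = 0.0938 in an exact two-sided sign-flip permutation test whose smallest p is 0.0156, and without pool 9 it was 0.0822. No member passed the count filter of the edgeR fit of these 2 gates, in which 56.7% of 6429 genes were called. Without the filter, *Ebf1* was higher in B-lineage cells by 2.36 ± 0.35 on the log2 scale (edgeR adjusted p = 2.85e-10), and with called doublets kept by 0.87 ± 0.38 (edgeR adjusted p = 0.0573).

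The share of cells with an *Ebf1* UMI, as found, overlapped by pool between B-lineage cells (3.57% to 46.7%, n = 7 pools) and T-cell-like cells (2.38% to 9.09%, n = 5 pools). Pooled over pools, it was found in 37 of 238 B-lineage cells, or 15.5% (95% Clopper-Pearson interval 11.2 to 20.8), in 4.36% of T-cell-like cells (2.64 to 6.72) and in 3.09% of macrophage-like cells (2.78 to 3.43). B-lineage cells were deeper, with a median of 11652.5 UMIs against 3928 and 4881. Thinned to 2000 UMIs the shares were 6.36% ± 5.00 (n = 7 pools), 2.02% ± 0.704 (n = 4 pools) and 1.16% ± 0.62 (n = 16 pools), a difference that was not tested. Thinning left out 1 B-lineage, 70 T-cell-like and 1444 macrophage-like cells with fewer UMIs. In T-cell-like cells *Ebf1* was at 0.185 ± 0.0683 UMIs per 10000, with values of 0.120 to 0.301 in 5 pools that lay within the B-lineage range. In the other run it was 0.409 ± 0.557 in 5 pools, from 0.0420 to 1.38, where B-lineage cells ran from 0.0684 to 1.05 in 8 pools. Only 2 pools held at least 10 cells of both kinds, and their fit gave a log2 fold change of 1.54 ± 0.68 for *Ebf1* in B-lineage against T-cell-like cells (edgeR adjusted p = 0.0791), where 25.4% of 6603 genes were called. In the other run it passed (1.96, edgeR adjusted p = 0.0101), and over all alternatives it ran from 0.75 to 1.96, with an adjusted p of up to 0.704 in DESeq2. With 2 pools this fit has little power, and a p that misses the threshold does not show equal levels.

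*Adipoq*, a MALP-like marker, had a UMI in 9.24% of B-lineage and 5.21% of macrophage-like cells, and *Ibsp* in 99.6% and 97.1%. The ratio of *Ebf3* to *Ebf1* UMIs was 0.359 in macrophage-like cells (95% interval 0.301 to 0.427), 0.341 in T-cell-like cells (0.172 to 0.639) and 0.151 in B-lineage cells (0.062 to 0.320). It was 0.355 in MALP-like cells (0.349 to 0.361) and 0.227 over all mesenchymal cells (0.224 to 0.230). These are ratios of UMIs pooled over pools, and the intervals cover counting error only. By pool the ratio was 0.318 ± 0.183 in macrophage-like (0 to 0.667, SD, n = 16) and 0.273 ± 0.347 in T-cell-like cells (0 to 0.667, n = 5). It was 0.0952 ± 0.163 in B-lineage (0 to 0.333, n = 7, from 8 *Ebf3* UMIs) and 0.357 ± 0.0928 in MALP-like cells (0.237 to 0.627, n = 16). The ranges by pool overlapped. The part of free RNA in the B-lineage level was not tested.

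Endothelial-like cells had 0.867 ± 0.381 *Ebf1* UMIs per 10000 (0.375 to 1.62, n = 11 pools), within the range of the mesenchymal classes. Among the markers of the gate, *Pecam1* was found in 94.8% and *Egfl7* in 94% of the 248 cells, while *Emcn* was found in 37.9%, *Cdh5* in 35.1%, *Kdr* in 25% and *Tie1* in 21.0%. The 87 cells with *Cdh5* had a pooled *Ebf1* level of 0.440 per 10000 and a median of 24.2 UMIs per 10000 over the mesenchymal marker list, where all endothelial-like cells had 0.984 and 85.5. MALP-like cells had a median of 68.3 over the same list. *Acta2* and *Adipoq*, markers of mesenchymal classes, had a UMI in 64.1% and 20.2% of the 248 endothelial-like cells. The part of mesenchymal cells or of their RNA in the *Ebf1* level of this gate was not tested.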

How the data were processed

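Single-cell 3′ RNA-seq was deposited for 16 pools in 2 runs (32 samples). Per the labels the authors used Cell Ranger 5.0.0 with mm10 and deposited raw UMI counts per gene and barcode (whole numbers, not normalized), before the cell filters, doublet removal and mouse assignment of the study. The annotation release is not given in the sources used here, and coordinates were taken from GENCODE M21.

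From run HGYVNCCX2, cells with 400 to 6200 genes and at most 10% mitochondrial, 20% *Rpl* and 15% *Rps* UMIs were kept. Doublets were scored per pool against simulated doublets (2 per cell, 30 principal components of 2000 genes), and the highest-scoring cells, in proportion to the number of barcodes, were removed, 5003 in all. Mesenchymal cells had at least 30 UMIs per 10000 over a list of collagen and matrix markers, and 3 times the sum of leukocyte markers. Blood, endothelial and glial gates asked for UMIs of their own markers. Classes took the highest of 4 standardized scores of 5 or 6 markers, above 0 and with a lead of 0.25. The members and lists were chosen with earlier results of these data known.

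Counts were summed per pool and class, with at least 20 cells (10 for B-lineage and T-cell-like cells), and tested with edgeR 4.0.16 in R 4.3.3 (filterByExpr, TMM, quasi-likelihood test, pool as a block, Benjamini-Hochberg adjusted p of 0.05). A standard error was obtained as the size of the log2 fold change over the root of the F statistic. The edgeR fits and the thinning were tested on simulated counts, and the steps that filter, gate and sum cells were not. With 200 genes changed by 1 on the log2 scale, the fit of B-lineage against T-cell-like cells, with 2 pools, recovered 1% of them. The fits of B-lineage against MALP-like and macrophage-like cells recovered 76% and 70%. Pools pair because both classes of a pool come from the same droplets and mice; the lowest correlation of deviations within a pool was 0.127 or more in the 6 comparisons of mesenchymal classes or macrophage-like cells and 0.0356 or more in the 2 of B-lineage cells with 7 pools. For single values, exact sign-flip permutation tests over pools were used, and p-values measure the spread between pools of different mice. Thinning used the exact hypergeometric expectation. Intervals are 95%, Clopper-Pearson for shares and exact Poisson for counts.

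Alternatives were RLE normalization, DESeq2 1.42.0, no count filter, no block, run HHFFMCCX2, doublets kept, other gate and class limits and leaving out each pool. The comparison of B-lineage with macrophage-like cells, the ratio and score-step tests, the bound for *Ebf2*, a mesenchymal minimum of 10 and a MALP-like list without *Adipoq* were added after the data had been seen. The named genes were the members, the 5 genes most like each of them, and from each list the 2 highest and the 2 lowest in MALP-like against LMP-like cells; other genes are markers or background. Marker genes were spelled as in the deposited tables. Endothelial-like, glial-like and granulocyte-like cells entered no fit, and their levels are given as values.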

Additional observations from a re-analysis of the deposited data

Results flagged for a closer look

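In B-lineage cells, pool 9 stood apart from the other 6 pools, with 0.921 *Ebf1* and 0.307 *Ebf3* UMIs per 10000 (a gap to the nearest pool of 0.711 and 0.883 of the whole range, where 0.568 is the 95% limit for 7 values). The *Ebf3* levels rest on 8 UMIs in 4 cells over all pools, and in no pool did more than 5.88% of B-lineage cells have an *Ebf3* UMI. The part of doublets in these levels was not tested. Among 5 pools of T-cell-like cells, pool 18 had the highest *Ebf1* level at 0.301, just past the limit of 0.71, and pool 14 was the only pool with *Ebf2* UMIs, at 0.0215. These rest on 41 *Ebf1* and 2 *Ebf2* UMIs in all, the *Ebf1* variance between pools was 0.219 times that of counting error, and with 4 pools at 0 the *Ebf2* gap is the whole range by construction. In the other run, pool 5 was the highest for *Ebf1*, at 1.38. Of groups of this kind, about 1 in 20 passes by chance, and 5 were examined.

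Cells in no gate, which enter no comparison, carried the genes above the macrophage-like background, with 1.42 *Ebf1*, 0.062 *Ebf2* and 0.251 *Ebf3* UMIs per 10000 (means of 16 pools). Of these 6894 cells, 526 had 3 or more *Ebf1* UMIs, in 16 pools; 71.7% of those had an *Adipoq* UMI at a median of 12236.5 UMIs per cell, where all cells in no gate had it in 12.4% at a median of 3005.5. The median of 24.0 UMIs per 10000 over the mesenchymal marker list in the 526 cells was under the minimum of 30.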

How the results depend on the processing

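The differences of *Ebf1*, *Ebf2* and *Ebf3* between MALP-like, LMP-like and osteoblast-like cells kept their direction under the 10 other settings and with each of the 16 pools left out. So did those of all mesenchymal cells together against macrophage-like cells, and all of these stayed past the threshold. *Ebf3* in MALP-like against LMP-like cells, for example, ran from 3.04 to 3.46 over the settings and from 3.09 to 3.18 over the pools left out (log2). RLE normalization moved the median of all genes from 0.06 to 0.24 in mesenchymal against macrophage-like cells and from -0.32 to -0.45 in B-lineage against MALP-like cells. Fits without the replicate block changed the call of *Ebf3* by hypoxia score and the sign of *Ebf1* in osteocyte-like cells and no other call of a member.

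In osteocyte-like against osteoblast-like cells, *Ebf1* was at 0.0382 without the block and between -0.0610 and 0.0298 with a pool left out, *Ebf3* was at 0.0590 with doublets kept, and *Ebf2* passed without pool 17 (0.11 to 0.29 over the pools left out). By hypoxia score, *Ebf3* did not pass in DESeq2 (-0.40, adjusted p = 0.0674), without the block (-0.36, adjusted p = 0.101 in edgeR), in the other run (-0.24), with doublets kept (-0.30) or with a class lead of 0.75 (-0.42), and ran from -0.47 to -0.33 with a pool left out. *Ebf1* in B-lineage against T-cell-like cells passed in the other run (1.96, edgeR adjusted p = 0.0101). DESeq2 called 473 genes in that comparison and edgeR 1675, and pools could not be left out there, since 1 would remain.

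The *Ebf2* to *Ebf1* ratio of MALP-like over LMP-like cells was 0.16 in the other run and did not pass. The top step of the score was -0.23 for *Ebf2* with doublets kept and -0.26 with the mesenchymal gate at 10 times the leukocyte sum; without *Adipoq* it was 0.49, -1.08 and -0.61 for *Ebf1*, *Ebf2* and *Ebf3* over 4 pools. Co-detection of *Ebf1* and *Ebf2* in MALP-like cells was 0.00987 with a lead of 0.75 and no longer passed. Between pools, r in MALP-like cells was 0.610 for *Ebf1* and *Ebf3* and 0.600 for *Ebf2* and *Ebf3* without pool 13, and 0.352 for *Ebf1* and *Ebf2* in LMP-like cells of the other run. The causes were not tested. The mean *Ebf1* difference of B-lineage and macrophage-like cells ran from 0.0822 to 0.23 with a pool left out and passed in none of these.

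Shares of cells depend on depth by construction. Those thinned to 4000 UMIs also leave out cells with fewer UMIs, among them 1364 of 8009 MALP-like, 4282 of 11148 macrophage-like and 220 of 436 T-cell-like cells. Without thinning and thinned to 4000 UMIs, the mean shares over pools in MALP-like cells were 91.1% and 86.6% for *Ebf1*, 24.5% and 13.1% for *Ebf2*, and 69.9% and 53.9% for *Ebf3*. In LMP-like cells they were 78.2% and 44.4%, 11.3% and 3.49%, and 24.2% and 9.22%. In osteoblast-like cells they were 54.8% and 19.3% for *Ebf1* and 3.39% and 0.713% for *Ebf2*, and 8.10% for *Ebf3* without thinning. For *Ebf1* they were 49.2% and 19.6% in osteocyte-like, 2.95% and 2.41% in macrophage-like and 5.87% and 3.45% in T-cell-like cells, and 20.3% in B-lineage cells without thinning. In the other run, the T-cell-like share of *Ebf1* was 9.11% without thinning, and thinned to 2000 UMIs it was 3.53% where the run used gave 2.02%. With doublets kept, macrophage-like cells had 0.254 *Ebf1*, 0.0186 *Ebf2* and 0.0945 *Ebf3* UMIs per 10000.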
